A study of Homo sapiens with 6 samples.

Results

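The 9 genes described here, CS, IDH2, IDH3A, IDH3B, OGDH, DLST, SUCLG1, FH and MDH2, code for enzymes of the tricarboxylic acid cycle. They were taken from the deposited count table by gene symbol, a list drawn up with earlier results of these data known, and all 9 had a row among the 12396 genes with an Ensembl identifier. The libraries came from JHH-4, an epithelial-like human hepatocellular carcinoma line. In 3 libraries, called miR372_3p, the cells carried a plasmid with the primary transcript of hsa-miR-372-3p and overexpressed that microRNA, and 3 libraries, called Control, came from control JHH-4 cells labelled WT. The labels do not say whether the control cells carried an empty plasmid or how long the plasmid was expressed. The series describes its replicates as technical, so every p-value below measures the spread between libraries of a single line and not between independent cultures.

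The cycle runs in the mitochondrial matrix. It joins acetyl-CoA, the product of pyruvate oxidation and of fatty acid beta-oxidation, to oxaloacetate and oxidises the resulting citrate step by step, handing electrons to NAD+ and to ubiquinone for the respiratory chain. In liver cells it also supplies citrate for lipid synthesis, oxaloacetate for glucose synthesis and alpha-ketoglutarate for amino acid exchange.

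MicroRNAs of this kind lower the transcripts whose 3′ untranslated region (UTR) pairs with the seed, bases 2 to 8 of the microRNA. The overexpressed microRNA is shown first because its seed defines the sites searched for below, with the seed in capitals and the sequence as RefSeq gives it for GRCh38.p14 (chr19:53787931-53787953, plus strand).
hsa-miR-372-3p: aAAGUGCUgcgacauuugagcgu
In the longest annotated 3′ UTR of each of the 9 enzyme genes (GENCODE 29, from 223 nt in SUCLG1 to 2944 nt in IDH3A), no seed match was found, neither the 8-base form AGCACTTA nor the 7-base forms AGCACTT (paired at base 8) and GCACTTA (with a final A), nor the 6-base core GCACTT. When every protein-coding transcript of these genes was searched, 1 of the 9 had a match, so the result holds for the longest 3′ UTR only. Whether the 9 differ in this from genes with 3′ UTRs of similar length was not tested. Over all 12192 genes whose 3′ UTR was searched, of any length, 40.6% held the 6-base core. Among those genes 494 held the full 8-base match, and 44.7% of these were lower in miR372_3p libraries by the test used below, against 26.2% of the 7245 genes with no match. Of the 2618 genes whose best match was the 7-base form paired at base 8, 29.7% were lower and 27.2% higher.

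The deposited counts summed to between 52511378 and 61699567 per miR372_3p library and to between 48325676 and 49693205 per Control library, and rows of assembled loci without an Ensembl identifier held 2.64 to 3.63% of them. Control replicate 3 stood apart from the other Control libraries on the second principal component. Its share of counts from mitochondrially encoded genes was 4.62%, where the other 5 libraries had 5.60 to 6.55%. Of 15 hepatocyte and hepatoma markers 8 were measured. Among these KRT8, KRT18, FGA, FGB and FGG were higher and SERPINA1, FOXA1 and FOXA2 lower in miR372_3p libraries, and their summed level was 4768 to 4920 CPM (counts per 1000000 counts of named genes, TMM-scaled) in miR372_3p libraries and 2376 to 2472 CPM in Control libraries, mostly keratins. The other 7, among them ALB, APOA1 and HNF4A, were not analysed here. Of 14 blood, endothelial and stromal markers 6 were measured, with summed levels of 213 to 226 CPM in miR372_3p libraries and 136 to 158 CPM in Control libraries, and COL1A1 and PDGFRB were the 2 that passed, both higher, while PTPRC, PECAM1 and 6 others were not analysed here. The part of these markers in the results below was not tested.

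Transcripts of 6 of the 9 enzymes were lower in miR372_3p libraries and none was higher. IDH2 and OGDH fell most, by 44.7% and 35.4%, and IDH3A, CS, SUCLG1 and FH fell by between 13.8% and 20.1%. IDH3B, DLST and MDH2 did not pass the test. Calls are from edgeR's quasi-likelihood test at a Benjamini-Hochberg adjusted p under 0.05 over all 12396 genes. By that rule 27.7% of all genes were called lower and 26.8% higher. The median log2 fold change of the 9 was −0.27, and that of all genes tested was 0.0013.

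**Figure D1:**
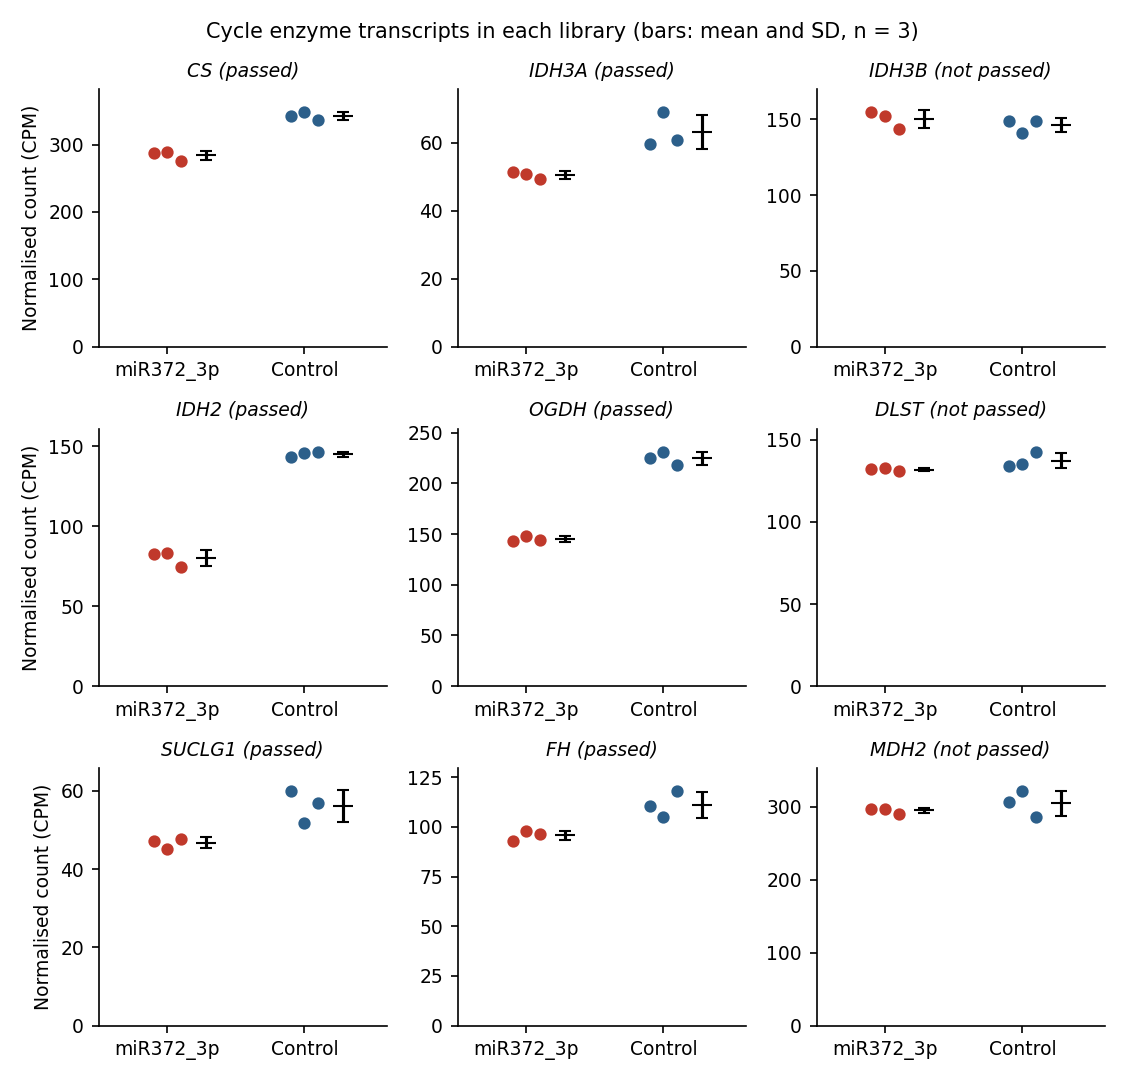
Normalised count in CPM (vertical axes, starting at 0) of each of the 9 enzymes in the 3 miR372_3p libraries (red) and the 3 Control libraries (blue), with the mean and SD beside the points. The IDH2 libraries sit at 74.5 to 83.2 CPM in miR372_3p and 144 to 147 CPM in Control, and the IDH3B and MDH2 libraries overlap between groups.

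In CPM, all 3 miR372_3p libraries lay below all 3 Control libraries for 7 of the 9, the 6 that passed and DLST. That pattern was seen in 31.4% of all genes. Together the 9 genes took 0.129%, 0.128% and 0.126% of the named counts in the miR372_3p libraries, against 0.153%, 0.154% and 0.154% in the Control libraries. The groups did not overlap, and the Wilson 95% intervals, which cover counting error only, reached up to 0.130% in miR372_3p libraries and down to 0.152% in Control libraries. In bulk RNA, a smaller number of cells with these transcripts and less of the transcript per cell cannot be told apart.

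**Figure D2:**
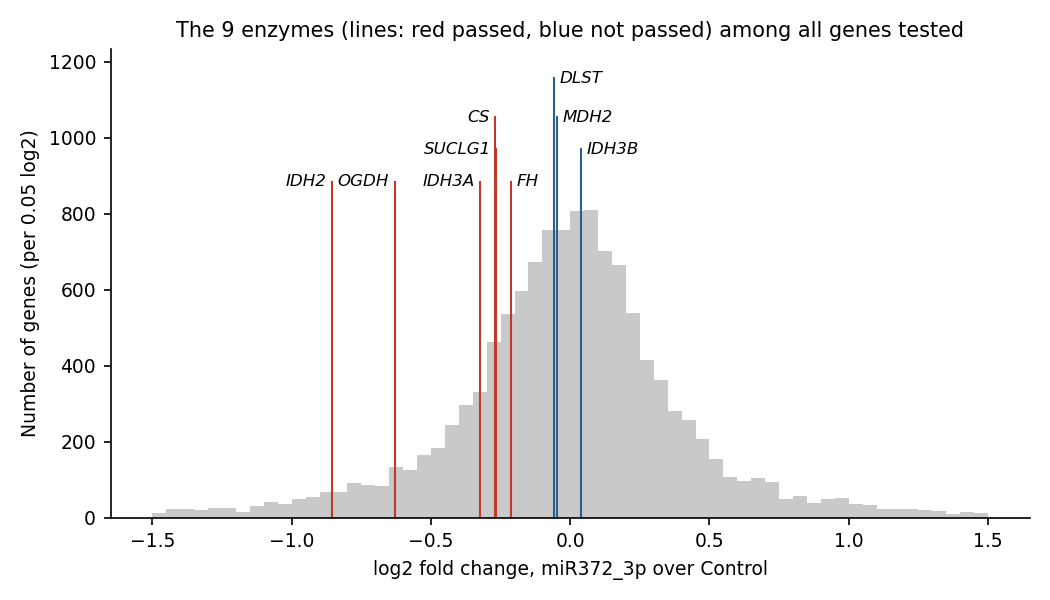
Histogram of the log2 fold change, miR372_3p over Control, of the genes tested (vertical axis, number of genes per 0.05 log2), with a line at the value of each of the 9 enzymes, red where it passed the test and blue where it did not. The axis stops at 1.5 in either direction and leaves out 302 genes. IDH2 lies in the lower tail, with 4.61% of all genes below it, and IDH3B at the middle, with 54.8% below it.

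Set among all genes, the 9 ranged from the lower tail (IDH2, with 4.61% of genes below it) to the middle (IDH3B, with 54.8%). OGDH had 7.68% of all genes below its log2 fold change, IDH3A 17.9%, CS 21.5%, SUCLG1 21.9% and FH 26.0%. DLST and MDH2, with 42.7% and 44.1% of genes below them, lay close to the middle. All 9 were well expressed: by mean CPM they stood above 64.3% (SUCLG1) to 96.2% (CS) of the genes in the table.

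Citrate synthase opens the cycle by joining acetyl-CoA to oxaloacetate. CS (ENSG00000062485, chr12:56271699-56300392, minus strand, GRCh38) had 287, 289 and 276 CPM in miR372_3p libraries, against 342, 348 and 337 CPM in Control libraries. Every miR372_3p library lay below every Control library. The means were 284 ± 6.76 CPM in miR372_3p and 343 ± 5.27 CPM in Control (SD, n = 3 each), a log2 fold change of −0.27 ± 0.035 (SE), with an edgeR adjusted p of 0.00013. The size of the CS difference depended on the deposited unit. In FPKM, which the deposited table scales by length and library size, CS averaged 96.9 ± 3.46 in miR372_3p and 104.8 ± 1.15 in Control (SD, n = 3 each), a log2 difference of −0.11. Tested with limma on log2(FPKM + 0.1), CS missed the threshold (adjusted p 0.0546).

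The 2 units differ by the length that the FPKM values imply. This length, the count divided by the FPKM and by the library's total count in units of 1000000, was 2.94, 2.75 and 2.85 kb for CS in miR372_3p libraries, against 3.13, 3.23 and 3.15 kb in Control libraries. The groups did not overlap, and the log2 difference was −0.16 (exact two-sided permutation p 0.1, the smallest that 3 against 3 libraries allow). For the other 8 enzymes the implied lengths overlapped between groups, with log2 differences between −0.04 and 0.01. Over the 12395 genes with a value, 90% lay between −0.11 and 0.08, and 5.20% had a larger absolute difference than CS. CS shares 220 exonic bases with the same-strand gene AC073896.1, which had 39 to 114 counts in any library, and 28 with the antisense gene AC073896.2, which was not analysed here.

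**Figure D3:**
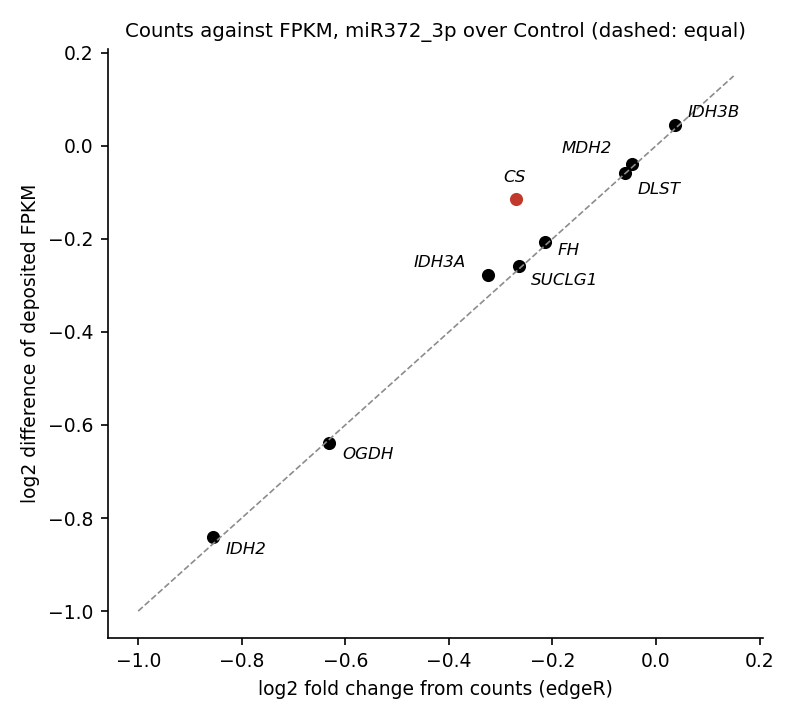
Log2 fold change from counts (horizontal axis, edgeR) against the log2 difference of the deposited FPKM (vertical axis), both miR372_3p over Control, for the 9 enzymes, with CS in red and a dashed line where both are equal. CS stands above the line, at −0.27 by counts and −0.11 by FPKM, and the other 8 lie closer to it.

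Isocitrate is oxidised to alpha-ketoglutarate by 2 different mitochondrial enzymes. The NAD-dependent one is built from IDH3A, its catalytic subunit, with IDH3B and IDH3G, and the NADP-dependent one is IDH2, which yields NADPH and can also run in reverse. IDH2 (ENSG00000182054, chr15:90083045-90102504, minus strand) had 83.0, 83.2 and 74.5 CPM in miR372_3p libraries, against 144, 146 and 147 CPM in Control libraries. The 2 groups were far apart compared with the spread within either. The means were 80.3 ± 4.97 CPM in miR372_3p and 145 ± 1.54 CPM in Control (SD, n = 3 each), a 1.81-fold lower level with a log2 fold change of −0.86 ± 0.049 (SE, edgeR adjusted p 5.92e-07).

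IDH3A (ENSG00000166411, chr15:78131498-78171949, plus strand) had 51.3, 50.9 and 49.2 CPM in miR372_3p libraries, against 59.7, 68.9 and 60.9 CPM in Control libraries. Its groups did not overlap, and Control replicate 2 was the highest of the 6. The log2 fold change was −0.32 ± 0.060 (SE, edgeR adjusted p 0.00128). The kit does not mark strand, and 38.2% of the exonic bases of IDH3A are shared with ACSBG1 on the opposite strand, which was not analysed here, so reads from the 2 genes cannot be told apart there. IDH3B (ENSG00000101365, chr20:2658395-2664219, minus strand), a subunit of the same enzyme, had 155, 153 and 144 CPM in miR372_3p libraries, against 149, 141 and 149 CPM in Control libraries. The groups overlapped, and the 95% interval of its log2 fold change ran from −0.06 to 0.13 (edgeR adjusted p 0.479).

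The alpha-ketoglutarate dehydrogenase complex makes succinyl-CoA. OGDH is its decarboxylating component, DLST its succinyltransferase core and DLD the dehydrogenase that it shares with the pyruvate dehydrogenase complex. OGDH (ENSG00000105953, chr7:44606572-44709066, plus strand) had 144, 148 and 144 CPM in miR372_3p libraries, against 225, 231 and 218 CPM in Control libraries. Its lowest Control library was well above its highest miR372_3p library. OGDH averaged 145 ± 2.63 CPM in miR372_3p and 225 ± 6.41 CPM in Control (SD, n = 3 each), a 1.55-fold lower level with a log2 fold change of −0.63 ± 0.037 (SE, edgeR adjusted p 6.89e-07).

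DLST (ENSG00000119689, chr14:74881891-74903745, plus strand) had 132, 133 and 131 CPM in miR372_3p libraries, against 134, 135 and 143 CPM in Control libraries. The groups stood side by side without overlap, but the difference did not pass the test. Its log2 fold change was −0.06 ± 0.038 (SE), with a 95% interval from −0.15 to 0.03 and an edgeR adjusted p of 0.216. The annotation also holds a processed copy, DLSTP1, and reads that match both could have been split by the counting.

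Succinyl-CoA ligase turns succinyl-CoA into succinate. SUCLG1 is the alpha subunit common to its 2 forms, the ADP-forming one with SUCLA2 and the GDP-forming one with SUCLG2. SUCLG1 (ENSG00000163541, chr2:84423523-84460045, minus strand) had 47.2, 45.2 and 47.8 CPM in miR372_3p libraries, against 59.9, 51.9 and 56.9 CPM in Control libraries. All the miR372_3p values were below the lowest Control value. The fall was 16.8%, a log2 fold change of −0.27 ± 0.058 (SE, edgeR adjusted p 0.00356).

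Fumarase and malate dehydrogenase close the cycle by hydrating fumarate and oxidising malate to oxaloacetate. FH (ENSG00000091483, chr1:241497603-241519761, minus strand) had 93.2, 97.8 and 96.2 CPM in miR372_3p libraries, against 110.3, 104.9 and 118 CPM in Control libraries. Its groups did not overlap, and its log2 fold change was −0.21 ± 0.049 (SE, edgeR adjusted p 0.00461). The copy FHP1 is a further place where reads could have been split. MDH2 (ENSG00000146701, chr7:76048051-76067508, plus strand) had 297, 297 and 291 CPM in miR372_3p libraries, against 306, 321 and 287 CPM in Control libraries. Control replicate 3 was the lowest of all 6, so the groups overlapped, and the 95% interval of the log2 fold change was −0.15 to 0.05 (edgeR adjusted p 0.399). Without Control replicate 3 the log2 fold change of MDH2 was −0.09 and its adjusted p 0.0456.

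Per length, in FPKM, MDH2 was the most abundant of the 9 in both groups, at 122 ± 1.79 in miR372_3p and 125.5 ± 5.19 in Control (SD, n = 3 each), and IDH3A was the least, at 11.5 ± 0.802 in miR372_3p and 13.9 ± 1.09 in Control. In miR372_3p libraries the order was MDH2, CS, IDH3B, FH, DLST, OGDH, SUCLG1, IDH2 and IDH3A, and the SUCLG1 and IDH2 values overlapped. In Control libraries it was MDH2, CS, IDH3B, OGDH, FH, IDH2, DLST, SUCLG1 and IDH3A, and the OGDH and FH values overlapped. OGDH stood at 36.2 ± 0.296 FPKM in miR372_3p and 56.3 ± 1.46 FPKM in Control, so in miR372_3p libraries it lay below DLST, which had 41.9 ± 0.371 FPKM there and 43.6 ± 1.55 FPKM in Control. IDH2 stood at 26.8 ± 1.84 FPKM in miR372_3p and 48.0 ± 0.817 FPKM in Control (SD, n = 3 each), next to SUCLG1 in miR372_3p libraries and above DLST in Control libraries.

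Ratios between partners of a complex were taken within each library. The FPKM ratio of OGDH to DLST was 0.859, 0.873 and 0.859 in miR372_3p libraries, against 1.34, 1.33 and 1.20 in Control libraries. OGDH was thus the scarcer of the 2 transcripts in every miR372_3p library and the more abundant in every Control library, with a log2 difference of −0.58. The FPKM ratio of DLST to DLD was 1.61, 1.69 and 1.66 in miR372_3p libraries and 1.62, 1.69 and 1.64 in Control libraries. Its log2 difference was 0.0016, with overlapping groups (exact permutation p 0.9). In the NAD-dependent isocitrate dehydrogenase, IDH3A to IDH3B was 0.135, 0.127 and 0.129 in miR372_3p libraries, against 0.151, 0.187 and 0.153 in Control libraries. The 2 groups did not overlap, and the log2 difference was −0.32.

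For succinyl-CoA ligase the alpha subunit was set against each of its 2 partners. SUCLG1 to SUCLA2 was 2.93, 2.99 and 3.02 in miR372_3p libraries, against 3.44, 3.42 and 3.84 in Control libraries. Its miR372_3p libraries all lay below the Control libraries. SUCLG1 to SUCLG2 had all miR372_3p libraries above the Control libraries, with 2.68, 2.66 and 2.56 in miR372_3p libraries, against 2.13, 1.80 and 1.87 in Control libraries. The ratio of the beta subunits, SUCLA2 to SUCLG2, was higher in every miR372_3p library, at 0.914, 0.889 and 0.850, against 0.618, 0.527 and 0.486 in the Control libraries, a log2 difference of 0.71.

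Enzymes that run the same reaction in different compartments or with different cofactors were set against each other too. So were FH and MDH2, and CS and ACLY, which run different reactions. The ratio of IDH2 to IDH1, the cytosolic NADP-dependent enzyme, was 0.704, 0.762 and 0.678 in miR372_3p libraries, against 1.25, 1.28 and 1.22 in Control libraries. IDH2 was the scarcer of the pair in all miR372_3p libraries and the more abundant in all Control libraries, and IDH1 itself had a log2 fold change of −0.04 (edgeR adjusted p 0.419). IDH2 to IDH3A was 2.28, 2.46 and 2.28 in miR372_3p libraries, against 3.61, 3.16 and 3.62 in Control libraries. MDH2 to the cytosolic MDH1 overlapped between groups (log2 difference 0.13, exact permutation p 0.5), as did FH to MDH2 (log2 difference −0.17, exact permutation p 0.2). Without Control replicate 3 these differences were 0.0068 and −0.08, and without Control replicate 2 the MDH2 to MDH1 difference was 0.22. CS to ACLY, the enzyme that splits citrate in the cytosol, was higher in miR372_3p by FPKM, with a log2 difference of 0.18, and overlapped between groups by counts, with 0.02.

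**Figure D4:**
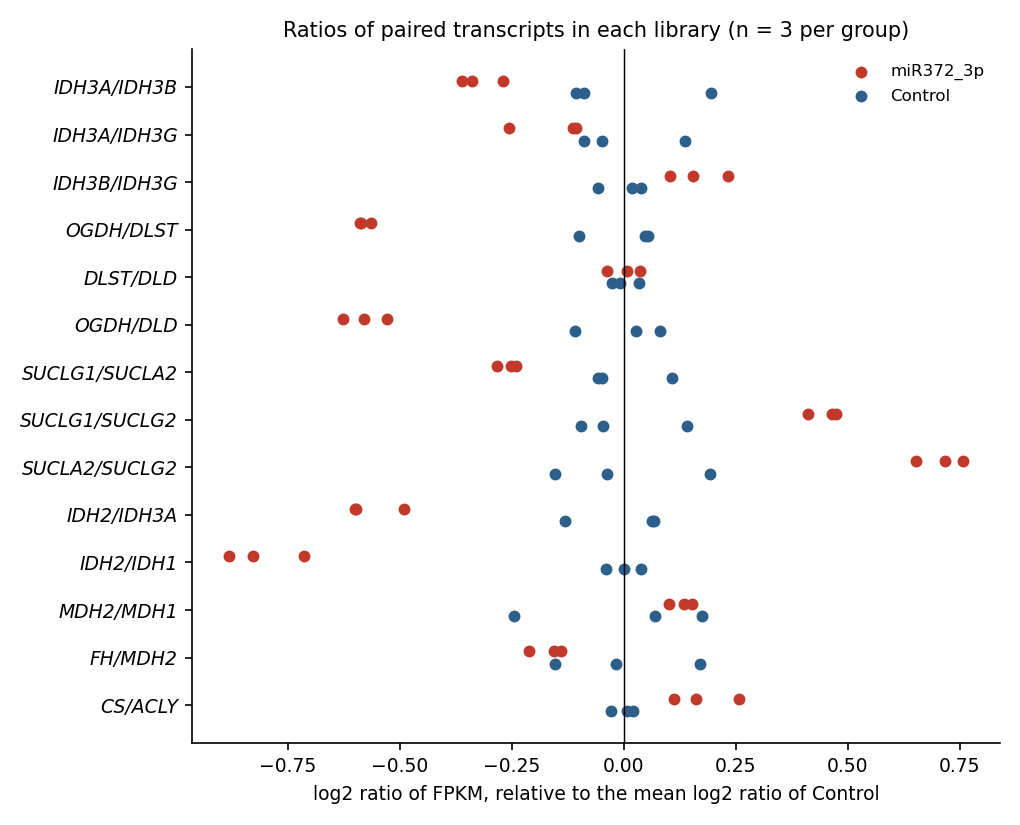
Log2 ratio of FPKM for 14 pairs of transcripts in each library, relative to the mean log2 ratio of the Control libraries, with the 3 miR372_3p libraries in red above the 3 Control libraries in blue. In 7 ratios all miR372_3p libraries lie below the Control libraries, in 4 above them, and in 3 the groups overlap. How often ratios of other gene pairs separate was not examined.

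Each ratio was tested with an exact two-sided permutation test. For the 11 ratios that did not overlap the p was 0.1, the smallest that 3 against 3 allow, and 0.127 after Benjamini-Hochberg adjustment over the 14, so none could pass a threshold of 0.05. By counts in place of FPKM, 7 ratios lay below, 2 above and 5 overlapped, the further overlaps being CS to ACLY and IDH3B to IDH3G (0.16 by FPKM and 0.12 by counts). How often ratios of other gene pairs separate was not examined. Over all genes 27.7% were called lower and 26.8% higher, but these are calls on single genes and not on ratios. Whether the ratios of the cycle differ from those of other genes was therefore not tested.

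Of 10 other genes of the cycle, all measured, 3 were lower, 1 was higher and 6 did not pass, a share lower close to the 27.7% of all genes. Over these 19 cycle genes this made 9 lower and 1 higher, where 27.7% of all genes were called lower and 26.8% higher. SUCLG2, the GDP-forming beta subunit, had 27.8, 26.7 and 28.8 CPM in miR372_3p libraries, against 44.7, 45.2 and 48.0 CPM in Control libraries (log2 fold change −0.73 ± 0.052 SE, edgeR adjusted p 2.4e-06). SDHA, the flavoprotein of succinate dehydrogenase, had 115, 116 and 112 CPM in miR372_3p libraries, against 166, 166 and 172 CPM in Control libraries (−0.56 ± 0.037 SE, adjusted p 1.49e-06). Neither gene's groups overlapped. SDHA has near-identical pseudogene copies, so its counts are less certain. SDHB, the iron-sulphur subunit of the same enzyme, fell too (−0.32). The membrane anchors of that complex, SDHC (0.10, adjusted p 0.0589) and SDHD (0.04, adjusted p 0.713), did not pass.

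OGDHL, an OGDH-like paralogue, was the gene that rose, at 4.99, 4.83 and 5.55 CPM in miR372_3p libraries, against 2.11, 1.35 and 2.55 CPM in Control libraries (log2 fold change 1.35 ± 0.218 SE, edgeR adjusted p 0.000554). Its level stayed far below that of OGDH. DLD, IDH3G, SUCLA2 and MRPS36, a small component of the alpha-ketoglutarate dehydrogenase complex, had log2 fold changes of −0.09, −0.08, −0.03 and −0.21 and did not pass. MRPS36 passed without miR372_3p replicate 3 (adjusted p 0.0418) and DLD without Control replicate 2 (adjusted p 0.0391).

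**Figure D5:**
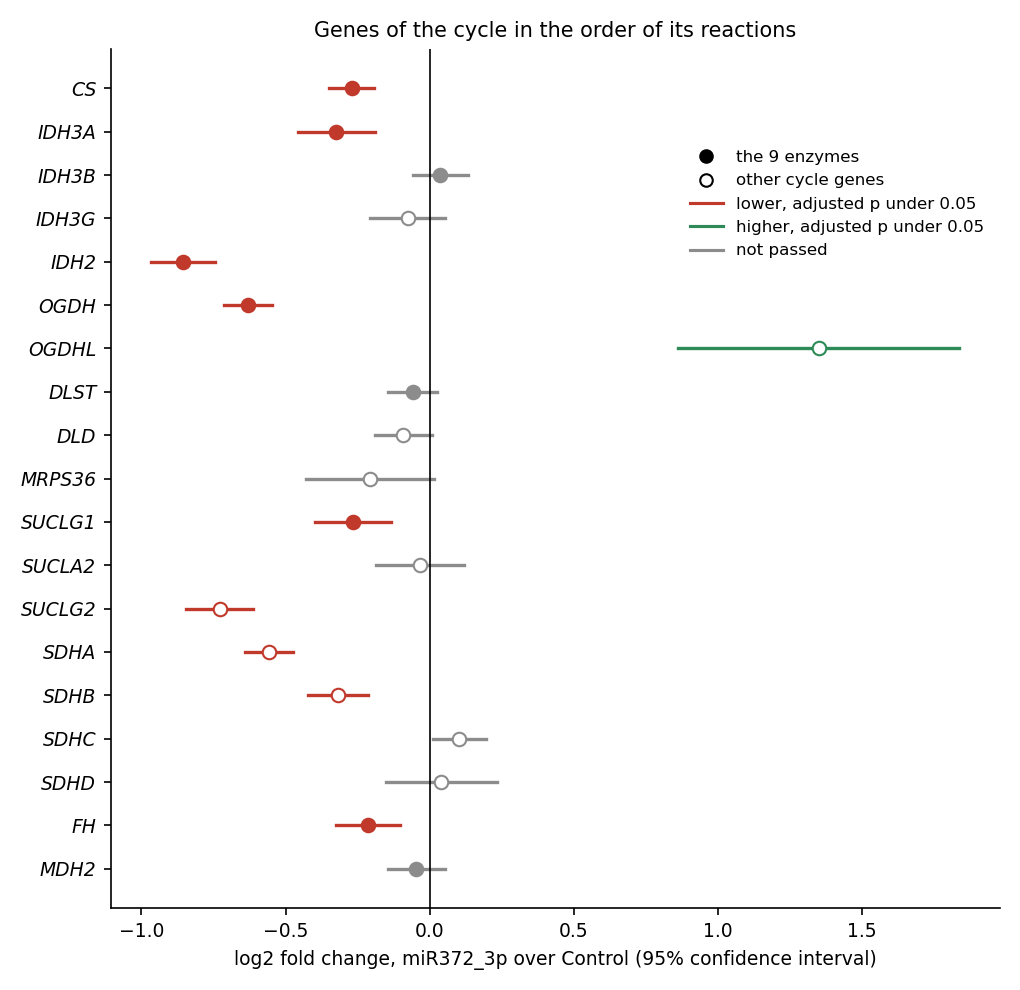
Log2 fold change, miR372_3p over Control, with its 95% confidence interval (horizontal axis) for 19 genes of the cycle in the order of its reactions; filled points are the 9 enzymes and open points the other 10 genes, red where lower, green where higher and grey where the test was not passed. IDH2, SUCLG2, OGDH and SDHA lie farthest below 0, and OGDHL is the one gene above 0 that passed.

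Upstream of the cycle, the pyruvate dehydrogenase list had 5 of 13 measured genes lower, 3 higher and 5 not past the test. Over all genes tested, 27.7% were called lower and 26.8% higher. Of the mitochondrial pyruvate carrier, MPC1 (−0.82 ± 0.204 SE, edgeR adjusted p 0.00688, at 2.05 CPM in miR372_3p and 3.62 CPM in Control) and MPC2 (−0.49 ± 0.046, adjusted p 1.52e-05) both fell. PDK3, a kinase that inactivates the complex, fell by 0.94 on the log2 scale (SE 0.181, adjusted p 0.00165), at 3.19 CPM in miR372_3p and 6.09 CPM in Control. The more abundant kinases PDK2 (−0.05), PDK1 (−0.02) and PDK4 (0.17) did not pass. The 3 that rose were the phosphatase subunits that reverse that inactivation, PDP1 (0.39), PDP2 (0.34) and the regulatory PDPR (0.21), which has near-identical copies in the genome and is therefore uncertain. PDHX (−0.23) and PDHA1 (−0.13) completed the 5, and PDHA1 lost its call (adjusted p 0.058 to 0.0904) when Control replicate 1 or 2 or miR372_3p replicate 1 or 3 was left out.

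Among enzymes that feed or drain the cycle, including the malate-aspartate shuttle, 14 of 16 were measured. Of these, 6 fell, 2 rose and 6 did not pass, where 27.7% of all genes were called lower and 26.8% higher. GOT1, the cytosolic aspartate aminotransferase, had a log2 fold change of −0.44 ± 0.046 (SE, edgeR adjusted p 3.14e-05), and the malic enzymes ME1 and ME2 had −0.34 and −0.32. By FPKM the ME2 difference had the opposite sign (0.38, limma adjusted p 0.325). GLUD1, which turns glutamate into alpha-ketoglutarate and has near-identical copies, rose by 0.30 ± 0.046 (SE, edgeR adjusted p 0.000443), and ACO1, the cytosolic aconitase, by 0.22 by counts, which was 0.09 and not past the test by FPKM (limma adjusted p 0.591).

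The list of lipoyl, iron-sulphur and succinate dehydrogenase assembly factors had 2 higher, 2 lower and 11 not past the test of 15 measured. Both shares lay below those of all genes, of which 26.8% were called higher and 27.7% lower. SDHAF3, an assembly factor of succinate dehydrogenase, rose by 0.90 ± 0.184 (SE, edgeR adjusted p 0.00232) at a low level of 2.17 CPM in miR372_3p and 1.16 CPM in Control. IBA57, a factor of mitochondrial iron-sulphur cluster assembly, rose by 0.28, and NFS1, the cysteine desulphurase of that pathway, fell by 0.30. The fourth, ISCU, the scaffold on which the clusters are built (−0.19), lost its call by FPKM and without miR372_3p replicate 1 or 2 or Control replicate 1 (adjusted p 0.0738 to 0.184 over these settings).

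Mitochondrial sirtuins, proteases and other factors that act on cycle enzymes had 2 of 7 measured genes lower and none higher. The share lower was close to the 27.7% of all genes called lower, and 26.8% of all genes were called higher. NNT, the transhydrogenase that like IDH2 makes mitochondrial NADPH, averaged 64.1 ± 1.02 CPM in miR372_3p and 102.2 ± 1.50 CPM in Control (SD, n = 3 each), a log2 fold change of −0.67 ± 0.040 (SE, edgeR adjusted p 7.75e-07). SIRT5, a mitochondrial desuccinylase, had −0.25 and lost its call without Control replicate 1 or 3 or miR372_3p replicate 1 or 3 (adjusted p 0.0565 to 0.0867).

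Among 11 transcription regulators of mitochondrial genes, 4 rose, none fell and 7 did not pass, where 26.8% of all genes were called higher. MYC averaged 455 ± 10.2 CPM in miR372_3p and 275 ± 27.4 CPM in Control (SD, n = 3 each), a log2 fold change of 0.72 ± 0.063 (SE, edgeR adjusted p 9.66e-06). TFAM, which packages and transcribes mitochondrial DNA, rose by 0.32 ± 0.058 (SE), PPRC1, a coactivator related to PGC-1alpha, by 0.26, and the orphan receptor ESRRA by 0.30 (adjusted p 0.0318). ESRRA lost its call by FPKM and when any 1 of the miR372_3p libraries or Control replicate 1 was left out (adjusted p 0.0608 to 0.0784). PPARGC1A, the gene of PGC-1alpha, had a log2 fold change of 0.01 (adjusted p 0.94).

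Promoters were read because some of these regulators have known binding motifs. RefSeq windows of 250 bases before to 50 after the gene start (GRCh38.p14) could be used for 7 of the 9 enzymes, without IDH2 and OGDH. The 7-base ETS motif CCGGAAG, which GABPA binds, was searched on both strands and found in 3 of the 7, IDH3B, DLST and MDH2, which are the 3 enzymes that did not pass the test. Over 8592 tested genes with such a window 20.2% held it, among them 15.3% of the genes called lower, 19.4% of those called higher and 23.8% of those not called. The sites are shown in 30-base windows with the motif or its reverse complement in capitals, read along the strand of the gene.
IDH3B, chr20:2664238-2664267, minus strand: ctcagtacaggCCGGAAGtcggggtacggg
DLST, chr14:74881883-74881912, plus strand: ggcccgccccaCTTCCGGttgttgtccggc
MDH2, chr7:76047982-76048011, plus strand: ctttccgactcCCGGAAGtggccgtgatct
MDH2, chr7:76048026-76048055, plus strand: ggcgagcgcgaCCGGAAGtccggtcactct
Counted to the RefSeq gene start on which each window is set, the motif begins 40 bases before it in IDH3B, 22 in DLST, and 113 and 69 in MDH2. These RefSeq starts are not the GENCODE starts given with the genes above, and the DLST motif lies inside the GENCODE gene. The NRF1 motif (GCGCA followed by its reverse complement), the estrogen-related receptor motif TCAAGGTCA and the MYC E box CACGTG were in none of the 7 windows, and in 2.48%, 0.140% and 10.4% of all. The motifs were chosen after the expression values had been seen, and a match describes letters in a window, not binding.

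Genes whose profile over the 6 libraries lay nearest to that of an enzyme were found by the distance between log2 CPM values, each centred on its own mean. For IDH2, the enzyme that fell most, the nearest were ZDHHC14, ID1 and RAB22A (distances 0.0385, 0.0511 and 0.0838), with log2 fold changes of −0.89, −0.84 and −0.83. A small distance requires a similar difference between groups, so these like fold changes follow from how the genes were picked. For IDH3B, which did not pass the test, they were TBCB, ISCA2 and CDK5RAP3 (distances 0.0178, 0.0225 and 0.0421).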

How the data were processed

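RNA of 6 JHH-4 libraries (NEBNext Ultra kit, which does not mark strand) was sequenced. The authors deposited 1 table with raw counts and FPKM values per gene and library, a log2 fold change and a p-value. The submitters' processing notes name HISAT2 2.0.4, StringTie 2.2.1, DESeq2 1.38.3 and GRCh38/hg38 without their roles. The deposited counts are whole numbers, and the smallest sum of a row over the 6 libraries is 208, so genes with few reads are not in the table. The authors' deposited p-value and log2 fold change were not used for any call.

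Of 14006 rows, 1610 assembled loci without an Ensembl identifier were left out of library sizes and tests (2.64 to 3.63% of counts), and filterByExpr removed 0 of the remaining 12396. Counts were tested with edgeR 4.0.16 (R 4.3.3; TMM scaling, quasi-likelihood F test, no covariate, Benjamini-Hochberg over all genes). CPM values use the TMM-scaled library sizes. DESeq2 1.42.0, limma 3.58.1 on log2 FPKM, other scalings and filters, each library left out, and a replicate block were alternatives. The common biological coefficient of variation was 0.0796. On simulated counts for 12396 genes, of which 200 drawn at random were changed, there were 15 false calls. The test recovered 40%, 84%, 98% and 100% of genes changed 1.25-, 1.5-, 2- and 3-fold. No pair of libraries agreed within sampling noise. Depth limits counting error only, and no read here carries a molecular identifier.

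The 9 enzymes, the neighbouring gene lists and the ratios were chosen with earlier results of these data known. From each neighbouring list, the up to 3 genes past the threshold with the largest absolute log2 fold change were to be named. Other list genes, and the regulators' motifs, were named after their values were seen. 3′ UTRs of at least 50 nt are those of GENCODE 29, promoter and microRNA sequences those of RefSeq (GRCh38.p14). Positions of genes are GENCODE 29 annotations. A few genes and a sequence are not reported here, and the counts of the lists leave them out.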

Additional observations from a re-analysis of the deposited data

How the results depend on the processing

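Of the 15 alternatives per enzyme, no direction of an enzyme's fold change turned, and the calls of IDH2, OGDH, IDH3A, SUCLG1, FH, IDH3B and DLST held under all 15. The alternative without a filter on low counts is the same as the main fit, because the filter removed 0 genes, so its agreement was fixed beforehand. CS lost its call with limma on log2(FPKM + 0.1) and log2(FPKM + 1), at −0.11 in both (adjusted p 0.0546 and 0.0534). Leaving out 1 library, the MDH2 log2 fold change ranged from −0.0899 to −0.0024 and passed only without Control replicate 3, 6 to 7 enzymes were lower and 0 higher, and the median of the 9 ranged from −0.27 to −0.22. By FPKM that median was −0.21 with the pseudocount 0.1 and −0.20 with 1. The ratio of DLST to DLD, 0.0016 on the log2 scale, ranged from −0.015 to 0.021 and so has no stable sign. With all protein-coding transcripts searched, 1 enzyme in place of 0 held a seed match. Replicate numbers did not pair the libraries: the deviations of same-numbered libraries correlated at −0.13, 0.0049 and 0.091 across genes, and 2 of 6 libraries correlated best with their own number. With the replicate block, 6 enzymes stayed lower and 0 higher, and over all genes 3428 were lower and 3381 higher, against 3438 and 3323 without it. Among the other cycle genes, 2 were higher with the block (OGDHL and SDHC), 3 without Control replicate 3 (SDHC and SDHD added), and 0 at a mean of at least 5 CPM, a filter that removes OGDHL; 4 in place of 3 were lower with the block, without miR372_3p replicate 3 (MRPS36 added in both) and without Control replicate 2 (DLD added). That filter also removes 2 of the 5 lower pyruvate dehydrogenase genes and 1 of the 2 higher assembly factors. On simulated counts 40% of genes changed 1.25-fold were recovered. Only 200 randomly drawn genes were changed there, where 3438 were called lower and 3323 higher in the data. The recovery rates therefore do not carry over to the data. Changes as small as those of DLST and MDH2 were not simulated, so how often they would be missed was not tested.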
